A study of Mus musculus with 54 samples.

Results

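The 8 genes described here encode peptidases and related hydrolases of the proximal tubule's apical membrane: Folh1, Dpp4, Mme, Enpep, Anpep, Mep1a, Mep1b and Ggt1. They are 8 of the 19068 genes in the expression table, named as a set because each protein sits on the brush border and cuts peptides or gamma-glutamyl bonds on its outer face. Folh1 was selected on its measured level in these same libraries, which differed between diabetic and nondiabetic mice, so its diabetes values are given below as a description, with no test. The other 7 were named for their function.

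The tissue was late proximal tubule cut from mouse kidney sections by laser capture microdissection, with 70 to 80 tubules pooled in each sample. Tubules were taken where they bound the lectin LTL, a label of proximal tubule, and lacked SGLT2 protein, the glucose transporter of the early proximal tubule. All mice were 14-week-old DBA males, and the treatments lasted 2 weeks. Diabetic mice carried the Akita allele of one insulin gene (Ins2 Akita/+), which makes beta cells fail, and nondiabetic mice were Ins2+/+ littermates. Mice of both kinds were either Sglt1-/- (knockout) or Sglt1+/+ (wild type), Sglt1 (Slc5a1) being the glucose transporter of the late proximal tubule. Diabetic wild-type mice had semaglutide, an agonist of the GLP-1 receptor given under the skin at 3 nmol per kg per day, in 5 libraries, dapagliflozin, a blocker of SGLT2 mixed into the diet at 10 mg per kg, in 5 libraries, or vehicle in 6 libraries. Diabetic knockout mice had dapagliflozin or vehicle, nondiabetic knockout mice had dapagliflozin or vehicle, and nondiabetic wild-type mice had dapagliflozin or vehicle, with 6 libraries in each of these groups. The 9 groups gave 52 libraries with values, of 54 labelled samples. Whether every sample was a mouse of its own is not stated in the labels, and the p-values measure only the spread between these samples, which may be partly technical.

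Brush-border peptidases work as a line of enzymes at the start of urine's passage along the tubule. They break filtered peptide hormones and proteins into amino acids and short peptides, which transporters in the same membrane then take up, and several of them set how long angiotensins, kinins and natriuretic peptides last at the cell surface. Folh1 (glutamate carboxypeptidase II, known from human prostate as PSMA) removes terminal glutamates, from folates with glutamate tails in the human and pig intestine and from the dipeptide NAAG in the rodent brain. Dpp4 removes dipeptides after proline or alanine and inactivates GLP-1, and semaglutide is built to resist it.

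The libraries carried the markers of the labelled segment. Summed over 8 markers of the late (S3) segment, TPM (transcript level scaled by length and library, with library sums that still differed) lay between 3160 and 9813 in the 52 libraries, against 166 to 949 for 7 markers of the earlier S1 and S2 segments. Slc5a2, which encodes SGLT2, was detected nevertheless, with a median of 18.2 TPM and a highest value of 205 TPM. Slc5a1 lay between 0.151 and 1.34 TPM in 24 knockout libraries and between 27.3 and 103 TPM in 23 wild-type libraries without semaglutide, so the genotype labels held in each of them. RNA of other cells was present, and markers of the thick ascending limb summed highest among them: its 5 markers with values came to between 412 and 4519 TPM, with a median of 1275 TPM. Summed markers of the distal tubule and collecting duct (8 with values) ranged from 43.5 to 863 TPM, and of stroma, pericytes and smooth muscle (9 with values) from 59.4 to 536 TPM. Those of macrophages and dendritic cells (9 of 9 genes detected) ranged from 300 to 660 TPM, of endothelium (8 of 8) from 145 to 328 TPM, and of podocytes (5 with values) from 13.1 to 96.6 TPM. T and B cell markers were near 0, at no more than 4.79 TPM for the 2 genes with values. Mitochondrial ribosomal RNA took 20.3% to 52.3% of the TPM. In a principal component analysis, 2 nondiabetic wild-type vehicle libraries and 1 nondiabetic knockout dapagliflozin library were the 3 lowest on the first component. That component carried 8.59% of the variance. Its correlation with a score of markers of other cell types (the other-cell score) was -0.77 over the 52 libraries. The 3 libraries stood at -68.5, -42.1 and -69.6, and the next lowest, an Akita knockout dapagliflozin library, at -31.1. They were taken by rank, and are called below the 3 libraries that stood apart. The members' averaged diabetes differences and the main correlations between members are also given without those 3, as are other results where stated.

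The 8 genes differed widely in level, and Ggt1 and Mep1a stood far above the rest. Ggt1 (gamma-glutamyltransferase, which opens the breakdown of extracellular glutathione) averaged 1849 ± 361 TPM over the 52 libraries (SD) and was the 34th gene of the table by mean. Mep1a (the alpha subunit of meprin, a zinc endopeptidase) averaged 1332 ± 307 TPM, and Mep1b (the beta subunit, which anchors meprin in the membrane) averaged 416 ± 111 TPM. Together Ggt1 and Mep1a made up 79.7 ± 1.9% of the summed TPM of the 8 genes. Mme (neprilysin, which cleaves natriuretic peptides, enkephalins and kinins) averaged 188 ± 56 TPM, and Anpep (aminopeptidase N, which turns angiotensin III into angiotensin IV) averaged 109 ± 23 TPM. Dpp4 averaged 49.9 ± 11 TPM, Folh1 26.5 ± 12.8 TPM and Enpep (aminopeptidase A, which turns angiotensin II into angiotensin III) 22.5 ± 12.1 TPM. TPM is scaled by transcript length, so these levels can be set against each other. Between the lowest and the highest library, Dpp4 varied least, 2.79-fold, and Enpep most, 12.6-fold, with Folh1 at 6.82-fold. All 8 had a value in every library and passed the minimum mean of 1 TPM for testing.

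**Figure D1:**
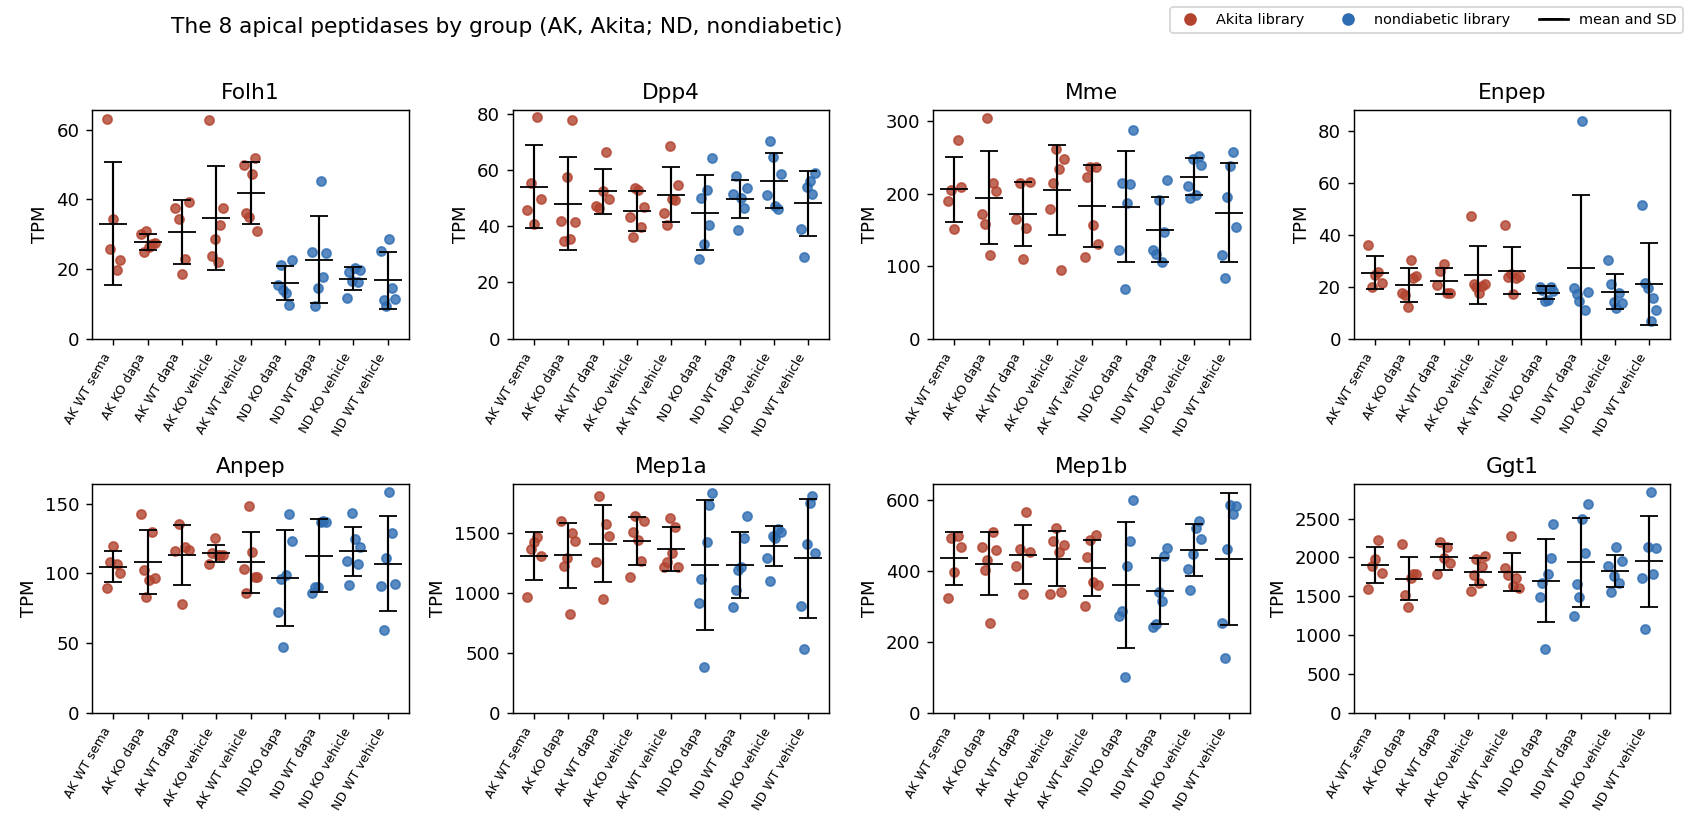
Level of each of the 8 apical peptidase genes in TPM (vertical axes from 0, different scales) in every library, by group (horizontal axes; sema, semaglutide; dapa, dapagliflozin), with black bars for the mean and SD of 5 or 6 libraries. Akita and nondiabetic libraries overlap widely for 7 of the genes; for Folh1 the Akita libraries lie higher.

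Folh1 (ENSMUSG00000001773, chr7:86718977-86775943 on the minus strand of GRCm38, a gene with 3 transcripts in GENCODE vM21) was higher in diabetic tubules in each of the 4 pairings of genotype and drug. In Akita wild-type vehicle libraries Folh1 ran from 30.9 TPM through a median of 41.7 TPM to 51.9 TPM, against 9.41, 12.9 and 28.7 TPM (lowest, median and highest) in nondiabetic wild-type vehicle libraries. In Akita knockout vehicle libraries it had 22.1, 30.7 and 63.0 TPM, against 11.6, 17.8 and 20.2 TPM in nondiabetic knockout vehicle libraries. In Akita knockout dapagliflozin libraries it had 24.9, 27.4 and 30.8 TPM, against 9.76, 14.6 and 22.7 TPM in nondiabetic knockout dapagliflozin libraries. In these 3 pairings the groups did not overlap, which describes a gene picked for its difference with diabetes and is no test. The share of all genes with such a separation is not given here. Under dapagliflozin in wild type they did: the Akita libraries had 37.6, 34.5, 18.6, 23.0 and 39.2 TPM, against a lowest value of 9.24, a median of 21.2 and a highest value of 45.2 TPM in nondiabetic libraries.

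On the log2(TPM + 1) scale the difference in Folh1, Akita minus nondiabetic, was 1.37 (SE 0.28) in wild-type vehicle mice, 0.90 (SE 0.28) in knockout vehicle mice, 0.52 (SE 0.29) in wild-type dapagliflozin mice and 0.81 (SE 0.28) in knockout dapagliflozin mice. Averaged over the 4 pairings it was 0.90 (SE 0.14), a 1.87-fold higher level. Of the 23 Akita libraries without semaglutide, 23 lay above the nondiabetic median, and 1 of 24 nondiabetic libraries lay above the Akita median. These are the values on which the gene was picked. Without the 3 libraries that stood apart the averaged difference was 0.91, and with the other-cell score as a covariate it was 0.90. Folh1 correlated at -0.23 with that score over the 52 libraries and at 0.01 after the group means were removed. In tubule pools such as these, fewer cells with a transcript and less of it in each cell cannot be told apart.

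In order of its group mean, Folh1 stood at 41.8 ± 8.9 TPM in Akita wild-type vehicle libraries, 34.6 ± 15 in Akita knockout vehicle, 33.1 ± 17.6 in Akita wild-type semaglutide, 30.6 ± 9.2 in Akita wild-type dapagliflozin and 27.8 ± 2.2 in Akita knockout dapagliflozin (SD, n = 5 or 6). The nondiabetic groups followed, with 22.7 ± 12.5 TPM in wild-type dapagliflozin, 17.2 ± 3.2 in knockout vehicle, 16.7 ± 8.2 in wild-type vehicle and 15.9 ± 5.0 in knockout dapagliflozin. No step between neighbours in that order was larger than the larger of the 2 SDs. The 5 Akita groups held the upper 5 places, and within either side the order is not resolved.

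**Figure D2:**
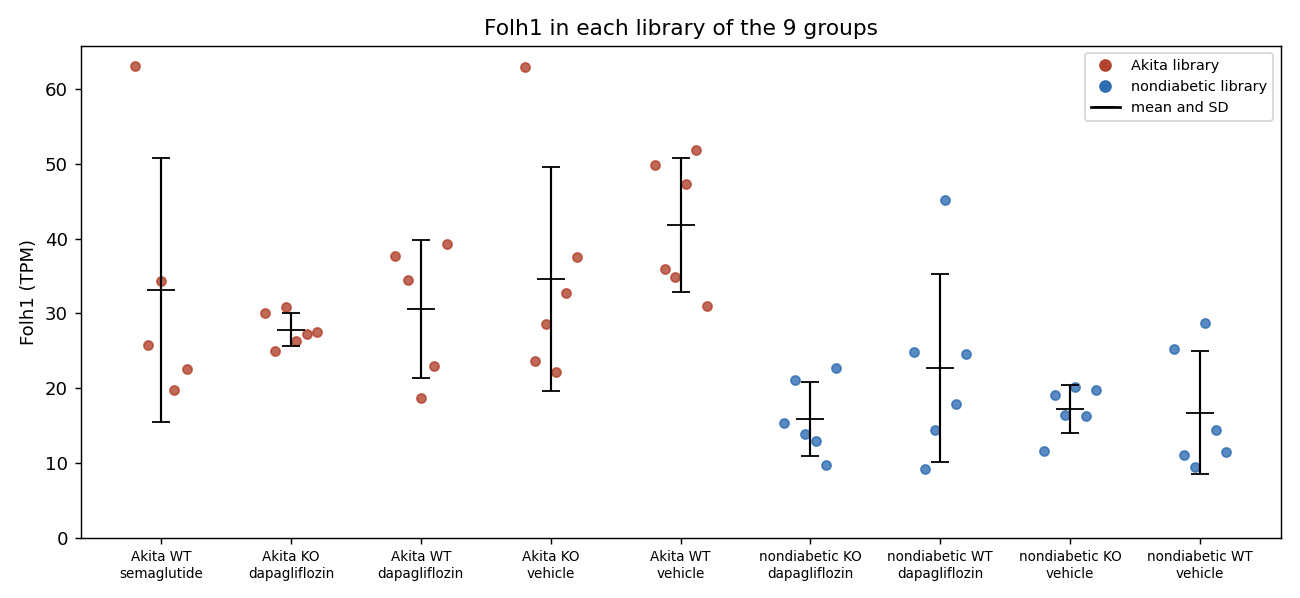
Folh1 in TPM (vertical axis) in each of 52 libraries by group (horizontal axis), with Akita groups at the left and nondiabetic groups at the right; points are libraries and black bars the mean and SD. The Akita wild-type vehicle libraries sit between 30.9 and 51.9 TPM and the nondiabetic wild-type vehicle libraries between 9.41 and 28.7 TPM.

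Neither drug nor the knockout gave a difference in Folh1 that passed the test, which was limma on log2(TPM + 1) with Benjamini-Hochberg adjustment over all 15424 genes tested. Under semaglutide the 5 Akita wild-type libraries had 63.0, 25.8, 34.4, 19.7 and 22.6 TPM, against 30.9, 41.7 and 51.9 TPM (lowest, median and highest) under vehicle. Of the semaglutide libraries, 3 lay below every vehicle library and 1 above every one. The difference was -0.43 (SE 0.29, adjusted p = 0.998, limma), with a 95% interval of -1.01 to 0.15, and without the library at 63.0 TPM it was -0.69 (adjusted p = 0.82, limma). That semaglutide library and the Akita knockout vehicle library at 63.0 TPM held the highest scores of S1 and S2 markers of all 52, 6.33 and 6.24 on a scale of mean log2(TPM + 1) whose lowest value was 3.20; the part of segment makeup in this difference was not tested.

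Dapagliflozin minus vehicle in Folh1 was -0.47 in Akita wild-type mice and 0.38 in nondiabetic wild-type mice, with averaged difference -0.11 (SE 0.14, adjusted p = 0.999, limma). The difference between the drug's differences in diabetic and nondiabetic mice was -0.46, with an interval of -1.03 to 0.10 (adjusted p = 0.979, limma). The knockout's averaged difference in Folh1 was -0.16 (SE 0.14, adjusted p = 0.837, limma), and diabetes by knockout gave -0.09 (SE 0.28). In the Akita wild-type comparisons of each drug with vehicle, the 95% intervals still hold differences as large as the averaged one between diabetic and nondiabetic mice.

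The 7 other peptidases did not differ between diabetic and nondiabetic tubules by any amount that passed the test. Averaged over the 4 pairings, 0 of 7 passed at an adjusted p under 0.05 by limma, and 0 of 7 had an unadjusted p under 0.05; over all genes 0.966% passed (149 of 15424, 121 higher and 28 lower in Akita). Their median difference was 0.07, against 0.03 over all genes, and it was -0.03 without the 3 libraries that stood apart. At an unadjusted p under 0.05 there were 2068 of all 15424 genes, or 13.4%. In wild-type vehicle mice 0 of 7 passed and 0 of 7 had an unadjusted p under 0.05, against 0.389% of all genes at the adjusted threshold and 1575 of 15424 at the unadjusted one.

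Dpp4 (chr2:62330073-62412231, minus strand) had the averaged difference nearest 0. In Akita libraries without semaglutide it ran from 34.6 through a median of 47.2 to 77.7 TPM, against 28.3, 51.3 and 70.2 TPM in nondiabetic libraries, and the ranges almost coincided. The averaged difference was -0.01 (SE 0.09), with a 95% interval of -0.19 to 0.18. On the linear scale that interval spans 0.874-fold to 1.13-fold. Without the 3 libraries that stood apart the difference was -0.08, and with the other-cell score as a covariate it was -0.06.

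Enpep (chr3:129269175-129332720, minus strand) came closest to Folh1's pattern. It had 12.1, 21.1 and 47.3 TPM (lowest, median and highest) in Akita libraries without semaglutide, against 6.64, 17.8 and 83.9 TPM in nondiabetic libraries, which enclosed the Akita range. The averaged difference was 0.28 (SE 0.16, adjusted p = 0.459, limma), with an interval of -0.05 to 0.61. It was 0.39 without the 3 libraries that stood apart, 0.51 with the other-cell score as a covariate (adjusted p = 0.185, limma), and in wild-type vehicle mice it was 0.52, or 0.97 without the 3 libraries that stood apart (adjusted p = 0.319, limma). Enpep correlated at 0.33 with that score over the 52 libraries and its part in the difference was not tested.

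For the meprin subunits the Akita and nondiabetic libraries shared their upper range, and the low values were nondiabetic. Mep1a (chr17:43474324-43502812, minus strand) had 828, 1439 and 1809 TPM in Akita libraries without semaglutide, against 383, 1371 and 1838 TPM in nondiabetic libraries, with an averaged difference of 0.16 (SE 0.12). Mep1b, on chromosome 18, had 254, 453 and 567.7 TPM in Akita libraries, against 101.2, 428 and 601 TPM in nondiabetic libraries, with a difference of 0.19 (SE 0.14). The nondiabetic library lowest in both was one of the 3 that stood apart. Without those 3 the averaged differences were -0.01 for Mep1a and -0.01 for Mep1b, and with the other-cell score as a covariate they were -0.02 and -0.01, so the positive values were not kept without those libraries. In wild-type vehicle mice without the 3 they were -0.20 for Mep1a and -0.43 for Mep1b.

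Mme (chr3:63241537-63386030, plus strand), Anpep (chr7:79821803-79861059, minus strand) and Ggt1 (chr10:75561604-75586200, plus strand) had averaged diabetes differences of 0.07, 0.07 and 0.03. Their group means in Akita libraries without semaglutide were 189 ± 55, 111 ± 18 and 1834 ± 231 TPM, against 182 ± 60, 108 ± 28 and 1853 ± 477 TPM in nondiabetic libraries (SD, n = 23 and 24). Each mean difference was smaller than the SD within either side. Without the 3 libraries that stood apart the 3 differences were below 0, at -0.08 for Mme, -0.03 for Anpep and -0.07 for Ggt1, and with the other-cell score as a covariate they were -0.06, -0.03 and -0.07 in that order.

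Semaglutide gave no difference in Dpp4, the enzyme that inactivates native GLP-1, that passed the test. Dpp4 had 45.8, 55.4, 40.9, 78.9 and 49.8 TPM in Akita wild-type semaglutide libraries, against a lowest value of 40.5, a median of 49.6 and a highest value of 68.7 TPM in vehicle libraries. The difference was 0.06 (SE 0.19, adjusted p = 0.998, limma), and the interval of 0.798-fold to 1.36-fold is what these libraries allow. Of the 8 peptidases, 0 passed by limma for semaglutide and 0 had an unadjusted p under 0.05, against 0% of all genes at the adjusted threshold and 800 of 15424 at the unadjusted one. Mme had the largest positive semaglutide difference among the 8, 0.21 (SE 0.29), with 190, 205, 151, 274 and 210 TPM under semaglutide, against 112, 190 and 237 TPM (lowest, median and highest) under vehicle. The semaglutide libraries lay mostly within the vehicle range.

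Semaglutide minus dapagliflozin in Akita wild-type mice was 0.04 for Folh1 (SE 0.30) and 0.02 for Dpp4 (SE 0.20), and 0 of 8 genes passed, with 0 of 8 at an unadjusted p under 0.05 by limma. Over all genes 0% passed, and 543 of 15424 had an unadjusted p under 0.05. Both drug groups share the vehicle libraries in their own comparisons.

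Loss of Sglt1 and dapagliflozin gave no call among the 8 either. For knockout minus wild type, 0 of 8 passed by limma and 0 had an unadjusted p under 0.05, against 0.0519% of all genes at the adjusted threshold and 1113 of 15424 at the unadjusted one. Mme had the largest knockout difference in size, 0.24 (SE 0.14, adjusted p = 0.747, limma): it had 68.4, 212 and 304 TPM in knockout libraries, against 83.9, 157 and 257 TPM in wild-type libraries without semaglutide. The medians differed while the ranges overlapped almost fully, and the difference was above 0 in each of the 4 pairings of diabetes and drug, from 0.16 to 0.46. For dapagliflozin minus vehicle, 0 of 8 passed by limma and 0 had an unadjusted p under 0.05, against 0% of all genes (631 of 15424 at the unadjusted threshold). All 8 averaged dapagliflozin differences were below 0, from -0.18 (Mme) to -0.03 (Ggt1), though Enpep stood at 0.10 without the 3 libraries that stood apart and at 0.05 with the other-cell score as a covariate, and Ggt1 at 0.01 with array weights; these genes vary together from library to library, as described next, so the 8 signs are not separate observations.

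**Figure D3:**
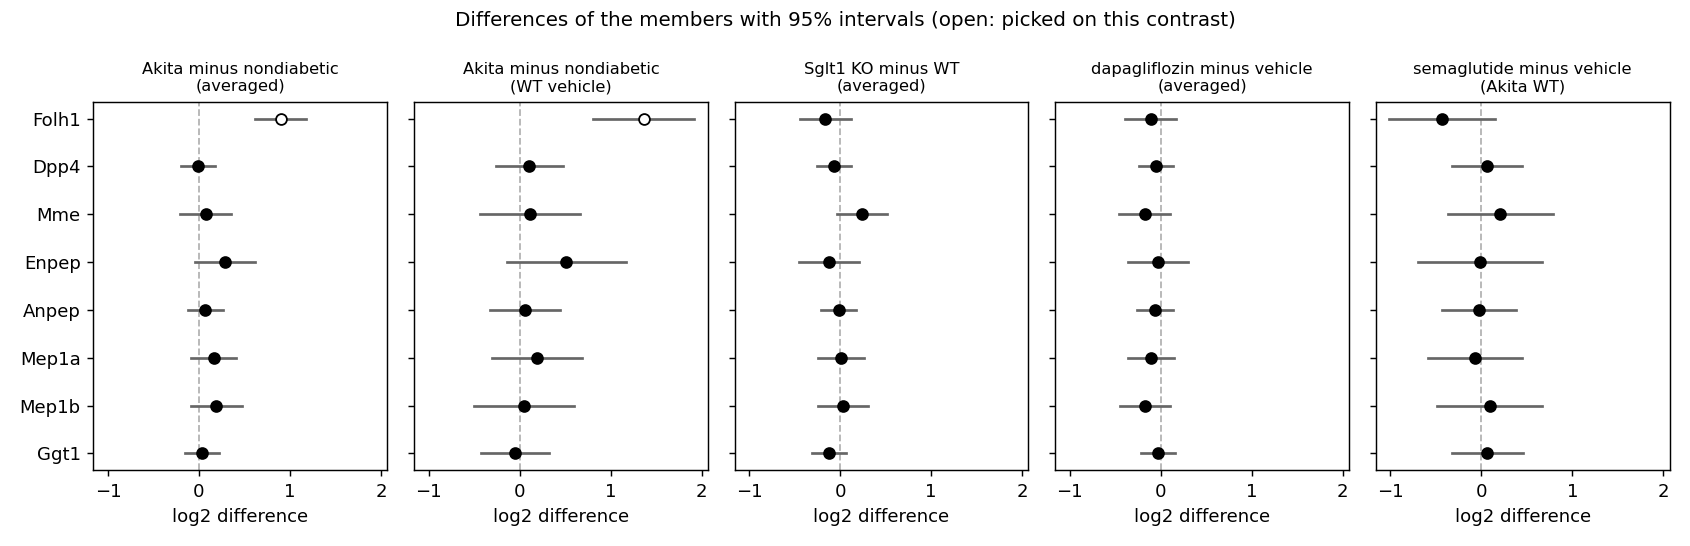
Difference in log2(TPM + 1) (horizontal axes) for each of the 8 genes (rows) in 5 comparisons (panels), with points for the limma estimate and lines for its 95% interval. Open points mark Folh1 in the diabetes contrasts on which it was picked; in each other case the interval includes 0.

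Across libraries the peptidases fell into 2 patterns. Mep1a and Mep1b, the 2 subunits of meprin, kept nearly the same proportion, with a Mep1a to Mep1b ratio of 3.27 ± 0.37 (SD, n = 52) and a range of 2.28 to 4.07, and their log2(TPM + 1) correlated at 0.95 over the 52 libraries. Mep1a also correlated at 0.86 with Anpep, at 0.78 with Ggt1 and at 0.77 with Mme. Dpp4 followed them loosely, at 0.43 to 0.52 with Mme, Anpep, Mep1a, Mep1b and Ggt1. Folh1 did not follow: its correlations with those 6 genes lay between 0.01 and 0.22, and its highest among the members was 0.43, with Enpep. Enpep's correlation with Mme was -0.29. Over the 49 libraries without the 3 that stood apart the values were lower for the block: Mep1a stood at 0.88 with Mep1b, 0.75 with Anpep, 0.60 with Ggt1 and 0.65 with Mme, and Dpp4 at 0.25 to 0.37 with those genes. Folh1 and Enpep stood at 0.46 there.

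Removing the group means left the values of the block much as they were, with 0.96 for the meprin pair. Folh1 fell from 0.43 to 0.31 with Enpep and from 0.16 to 0.04 with Mep1a. The points share their groups, the tissue dissected and the scale of each library, so the correlations are given as descriptions.

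**Figure D4:**
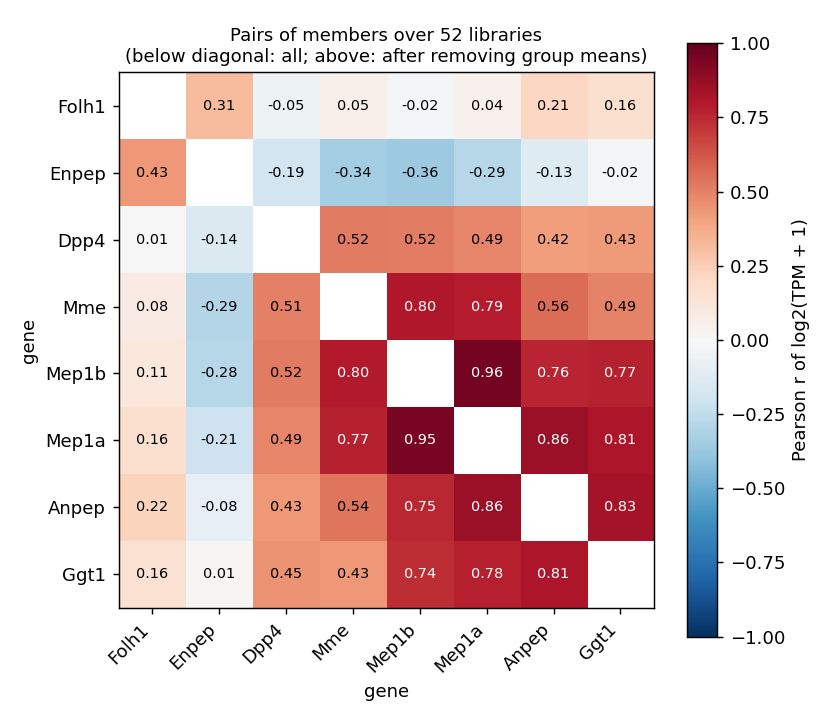
Pearson correlation of log2(TPM + 1) for each pair of the 8 genes over 52 libraries, below the diagonal over all libraries and above it after the group means were removed; both axes list genes and the colour gives r from -1 to 1. Mme, Mep1b, Mep1a, Anpep and Ggt1 form a block of high values, and Folh1 and Enpep lie outside it.

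The 2 patterns differed along the segment markers, to degrees that varied by gene. Against the score of S1 and S2 markers over the 52 libraries, Folh1 correlated at 0.38 and Enpep at 0.50. Mep1a and Mep1b both stood at -0.56 and Mme at -0.53, with weaker values of -0.26 for Ggt1, -0.25 for Anpep and -0.24 for Dpp4. Against S3 markers without Slc5a1, Ggt1 stood at 0.88, Anpep at 0.86, Mep1a at 0.83 and Mep1b at 0.76. Mme and Dpp4 stood lower there, at 0.43 and 0.40, with Folh1 at 0.09 and Enpep at -0.16. Group means of the S1 and S2 score were 4.35 to 4.65 in Akita mice without semaglutide and 4.32 to 4.36 in nondiabetic mice. SDs within these groups ran from 0.53 to 1.1, so a shift of the score with diabetes was not resolved. Of the S1 and S2 markers, 7 of 7 had an averaged diabetes difference above 0, with a median of 0.07. Slc2a2 is a marker in this score and is also among the genes closest to Folh1 named below. The score and Folh1 are therefore not independent. With that score as a covariate the averaged diabetes difference of Folh1 was 0.85.

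**Figure D5:**
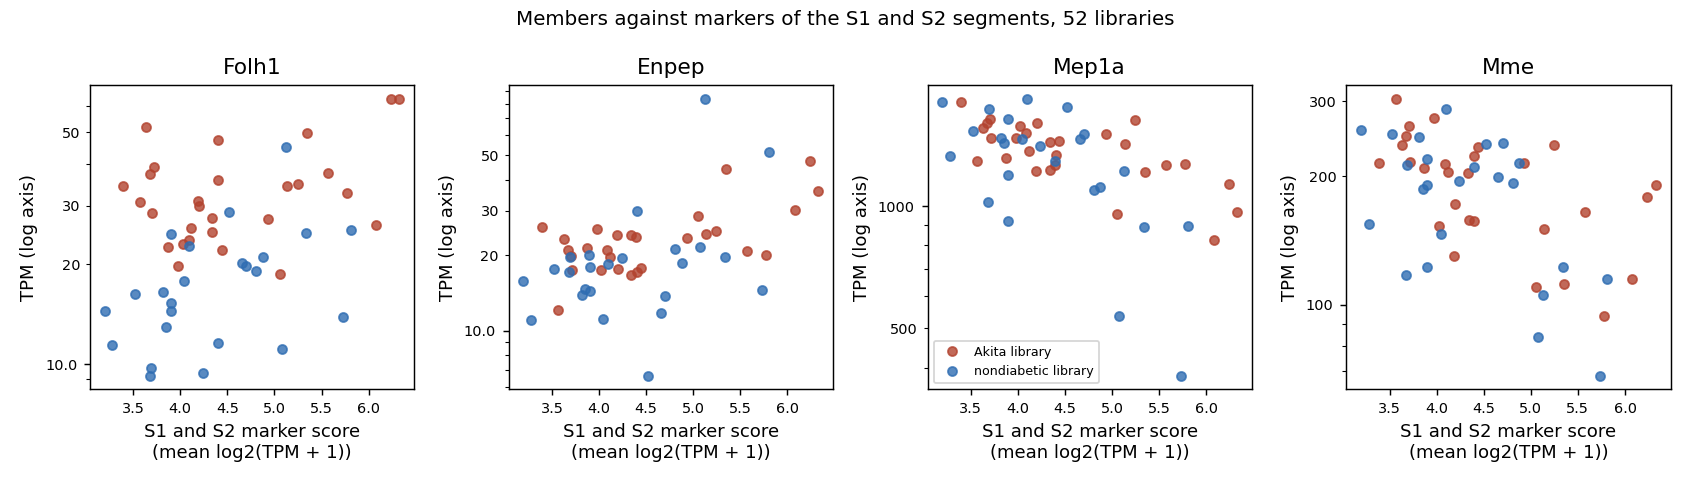
TPM of Folh1, Enpep, Mep1a and Mme (vertical log axes) against the score of S1 and S2 markers (horizontal axes, mean log2(TPM + 1)) in 52 libraries, coloured by diabetes. Folh1 and Enpep are higher at high scores (r of 0.38 and 0.50) and Mep1a and Mme lower (-0.56 and -0.53); Akita libraries lie above nondiabetic ones for Folh1 over most of the score's range.

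The 5 genes whose log2(TPM + 1) followed Folh1 most closely over the 52 libraries were Hao2 (r of 0.82), Afm (0.78), Alb (0.72), F13b (0.71) and Slc2a2 (0.71). Members and predicted genes (Gm or Rik symbols) were left out of this ranking. Hao2 encodes a peroxisomal hydroxyacid oxidase, Afm the vitamin E carrier afamin, Alb albumin, F13b a subunit of clotting factor XIII, and Slc2a2 the glucose transporter GLUT2 of the early proximal tubule. After the group means were removed their correlations with Folh1 were 0.69, 0.55, 0.68, 0.61 and 0.61 in the same order. Alb averaged only 1.35 TPM, close to the minimum for testing, and Hao2 109 TPM. The correlations over the 52 libraries include the diabetes difference on which Folh1 was picked: the averaged differences were 0.74 for Hao2, 0.83 for Afm, 0.48 for Alb, 0.52 for F13b and 0.67 for Slc2a2, given as a description. For Dpp4, ranked in the same way, the closest genes were Cyp4a31 (0.58), Map3k15 (0.57) and Capn7 (0.57). After the group means were removed they stood at 0.55, 0.55 and 0.60, against 0.69 for Hao2 with Folh1.

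Sequence before the start site is shown for 2 genes of the block that varied together (Mep1a and Anpep) and for the pair outside it (Folh1 and Enpep). The letters are RefSeq's for GRCm38.p6, whose reference strain is C57BL/6J and not DBA. Each runs 5′ to 3′ on the gene's own strand, which is the minus strand for all 4, from 250 bases before the RefSeq start towards that start; for Folh1 and Mep1a the last 79 and 39 bases before the start are left off because a GENCODE exon covers them. The Anpep window lies within the gene's GENCODE interval, in an intron of its longer transcripts, before a RefSeq start inside the gene. Capitals mark matches to 3 motifs sought on both strands, a site of the type bound by HNF4 (CAAAGT), a transcription factor of the proximal tubule, the TATA box (TATAAA) and the GC box (GGGCGG).
Folh1, chr7:86775944-86776114: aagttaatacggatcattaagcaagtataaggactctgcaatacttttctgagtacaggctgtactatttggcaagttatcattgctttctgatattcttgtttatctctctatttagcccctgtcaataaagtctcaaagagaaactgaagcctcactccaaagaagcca
Enpep, chr3:129332750-129332999: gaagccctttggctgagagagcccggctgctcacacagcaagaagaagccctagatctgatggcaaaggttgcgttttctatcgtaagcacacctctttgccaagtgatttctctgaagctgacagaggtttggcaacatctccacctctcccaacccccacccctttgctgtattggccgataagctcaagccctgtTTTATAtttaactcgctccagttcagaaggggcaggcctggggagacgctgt
Mep1a, chr17:43502813-43503023: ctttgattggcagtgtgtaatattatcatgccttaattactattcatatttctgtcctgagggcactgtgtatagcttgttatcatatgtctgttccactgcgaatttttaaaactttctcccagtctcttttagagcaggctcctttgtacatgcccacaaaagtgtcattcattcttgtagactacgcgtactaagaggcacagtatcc
Anpep, chr7:79848211-79848460: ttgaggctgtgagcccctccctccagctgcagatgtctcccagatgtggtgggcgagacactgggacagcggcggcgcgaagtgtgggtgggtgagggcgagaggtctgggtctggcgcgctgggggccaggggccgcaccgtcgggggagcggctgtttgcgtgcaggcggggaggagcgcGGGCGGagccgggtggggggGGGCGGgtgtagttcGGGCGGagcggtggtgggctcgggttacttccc

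Over 32841 RefSeq promoters, the share with a match was read in the same window as for each gene. Enpep had 1 TATA box on the opposite strand, 52 to 47 bases before the start (12.4% of promoters over the same 250 bases). Anpep had 3 GC boxes within 68 bases of the start (32.7% hold at least 1) and a G and C content of 72.8%, against a median of 52.4% over all promoters. Folh1 and Mep1a held none of the 3 motifs in their windows of 171 and 211 bases, with G and C contents of 36.8% and 39.3%. Mep1a and Anpep shared none of these motifs, in windows of unequal length. Whether these starts are used in these tubules was not tested, and nothing about their correlation is drawn from the motifs.

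Other genes around these enzymes were read from 6 lists. Of 11 genes of folate handling, 1 passed for diabetes averaged, against 149 of all 15424 genes tested (0.966%). This was Ftcd, which passes one-carbon units from histidine breakdown to folate. It averaged 76.7 ± 21.0 TPM in Akita libraries, against 54.1 ± 18.4 TPM in nondiabetic libraries, and was higher by 0.53 (adjusted p = 0.0287, limma). It lost the call with the other-cell score as a covariate (difference 0.41, adjusted p = 0.235, limma), without the 3 libraries that stood apart (0.40, adjusted p = 0.0909, limma), and in 3 of the 52 fits that left out 1 library, with adjusted p-values by limma of 0.0503 without Akita knockout dapagliflozin replicate 1, 0.0581 without Akita wild-type dapagliflozin replicate 5 and 0.0528 without nondiabetic wild-type vehicle replicate 2. Folr1, the apical folate receptor, differed by 0.27 (adjusted p = 0.257, limma) and Slc46a1, the proton-coupled folate transporter, by 0.15 (adjusted p = 0.649, limma). The median of the 11 genes was 0.16. Macrophage and dendritic cell markers, a part of that score, had a median difference of -0.46 in the same comparison, endothelial markers -0.21 and thick ascending limb markers -0.21; their part in the call of Ftcd was not tested beyond these fits.

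In the 5 remaining lists 0 of 43 genes passed by limma in the averaged diabetes, averaged knockout, averaged dapagliflozin or semaglutide comparison; at an unadjusted p under 0.05 there were 14 for diabetes, 5 for knockout, 3 for dapagliflozin and 2 for semaglutide. As shares these were 32.6%, 11.6%, 6.98% and 4.65%, against 13.4%, 7.22%, 4.09% and 5.19% of all genes in the same order. These were 12 genes of the microvillus scaffold, 11 tested relatives of the members such as Naalad2 and 7 tested genes of the glutathione cycle. The others were 8 carriers of peptides and amino acids and 5 tested receptors of peptide hormones. For diabetes averaged their medians were 0.15, 0.04, 0.25, 0.16 and -0.05 in that order, against 0.03 over all genes. These shares and medians are not given without the 3 libraries that stood apart or with the other-cell score as a covariate. No rise of these lists with diabetes is therefore drawn from them. Gsr, glutathione reductase, had 75.1 TPM on average in Akita libraries, against 57.4 TPM in nondiabetic libraries, the largest difference of its list at 0.41 (adjusted p = 0.0959, limma). Glp1r, the receptor of semaglutide, was not analysed here.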

How the data were processed

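RNA from laser-captured tubules (0.5 ng per sample, DV200 above 30) went into SMARTer Stranded Total RNA-seq v3 Pico libraries, per the labels' protocols. The authors deposited one table of log10 TPM for 52 libraries, with outliers already left out per its name; the build was GRCm38 per the submitters' processing notes, and the aligner and the annotation were not given in the sources used here. The deposited log10 values were turned back to TPM, with blanks taken as 0, and TPM sums ran from 984393 to 2253870. Mean sums in Akita and nondiabetic libraries were 1858000 and 1422000 for wild-type vehicle, and 1644000 and 1380000 for knockout vehicle. Under dapagliflozin they were 1603000 and 1847000 in wild type, and 1368000 and 1364000 in knockout. TPM keeps no count of reads, so sequencing depth is unknown and no counting interval is given. No pair of libraries held identical values (correlations of 0.847 to 0.955).

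Differences were fitted with limma 3.58.1 in R 4.3.3 on log2(TPM + 1), with 9 group means and with trend and robust variance moderation. A minimum mean of 1 TPM (15424 genes) and Benjamini-Hochberg adjustment at 0.05 were used. The script was tested on the same libraries dealt at random over the groups, with known fold changes put into some genes. An averaged difference is the mean of 4 matched differences. Tables and plots used Python 3.11.15, pandas 2.3.3 and matplotlib 3.10.9. Groups follow the labels, and 2 labelled samples without a column were not analysed here. Replicate numbers follow accession order and pair nothing. Alternatives changed the pseudocount to 0.1, the filter, the scaling, weights, covariates or the libraries used. The members and gene lists were chosen with earlier results of these data known. Beside the members, the text names up to 3 genes a list that passed, the 5 genes most like Folh1 and the 3 most like Dpp4. Folr1, Slc46a1, Gsr and Naalad2, and the promoters and motifs, were chosen after values were seen. Some genes of the lists are not reported here.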

Additional observations from a re-analysis of the deposited data

Results flagged for a closer look

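In 6 of 72 checks of 1 gene in 1 group, a single library lay apart from the others of its group; chance flags about 1 group in 20. Low libraries were Mme at 94.04 TPM in Akita knockout vehicle replicate 5, Anpep at 77.8 TPM in Akita wild-type dapagliflozin replicate 4, Mep1a at 968 TPM in Akita wild-type semaglutide replicate 2 and Mep1b at 254 TPM in Akita knockout dapagliflozin replicate 4. High libraries were Enpep at 47.3 TPM in Akita knockout vehicle replicate 1 and at 83.9 TPM in nondiabetic wild-type dapagliflozin replicate 4. The S1 and S2 marker score of these 6 libraries lay between 5.06 and 6.33, in a range of 3.20 to 6.33 over all 52; its part in these values was not tested.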

How the results depend on the processing

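The 8 genes gave 0 calls by limma in all 5 comparisons under each of 64 alternatives (12 settings and 52 fits without 1 library), Folh1 in the diabetes contrasts aside; the smallest adjusted p of a tested member was 0.157. Uncalled differences changed sign in 130 of 2560 values, all of size 0.208 or less as first fitted. Folh1 kept its sign, at 0.85 to 0.96 for diabetes averaged and 1.13 to 1.54 in wild-type vehicle mice. The call of Ftcd was lost in 3 of 52 fits without 1 library and in 3 of 12 other settings: rescaling to a fixed sum without mitochondrial genes, the other-cell covariate, and leaving out 3 libraries.

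The number of genes called moved more, and the cause was not tested. For diabetes averaged (149) it was 72 with rescaling to that fixed sum, 63 with the other-cell covariate, 271 with the S1 and S2 covariate, 304 with the library number of the sample titles, 74 without the 3 libraries that stood apart, 75 with summed TPM as a covariate (added after seeing the data) and 97 to 204 without 1 library (97 without Akita wild-type dapagliflozin replicate 3 and without nondiabetic wild-type vehicle replicate 2). For diabetes in wild-type vehicle mice (60) it was 36 with that rescaling, 143 with library number, 34 in the compared groups alone, 31 with summed TPM and 39 to 148 without 1 library (39 without Akita wild-type vehicle replicate 4, 148 without nondiabetic wild-type vehicle replicate 5). For knockout (8) array weights gave 19. For semaglutide (0) array weights gave 12, library number 2, leaving out the 3 libraries 2, and leaving out 1 library 0 to 3 (3 without Akita wild-type semaglutide replicate 2; 1 without vehicle replicate 2 of Akita or of nondiabetic wild-type mice). With that rescaling the median difference of all genes was -0.17 for diabetes in wild-type vehicle mice and 0.21 for semaglutide. No paired analysis was possible because the labels give no replicate numbers. With 5 or 6 libraries a group and no read counts, small changes of low genes such as Enpep cannot be resolved.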
